A study of Mus musculus with 2 samples.

Results

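The 6 genes described here are the 4 ligands of the platelet-derived growth factor (PDGF) family, Pdgfa, Pdgfb, Pdgfc and Pdgfd, and the 2 receptors that bind them, Pdgfra and Pdgfrb. They were taken by name, and all 6 were found among the 19169 genes of the table. The samples were gastrocnemius muscle of male mice on day 14 after an injection of cardiotoxin (CTX), a snake toxin that destroys muscle fibers and starts their repair. One library came from wild-type C57BL/6J mice (WT) and the other from mice with a global knockout of Gsdme (KO), a pore-forming gasdermin; both groups received CTX, so no uninjured muscle is in the comparison. The age of these mice is not given in the sources used here. The study names 5 mice per genotype without saying whether they were pooled, and 1 library per genotype was analysed. Levels are therefore given with intervals that cover counting error only, and no test between genotypes was possible.

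PDGFs are dimeric growth factors that make a pair of receptor kinases come together and phosphorylate each other. PDGF-A and PDGF-C act mainly through the alpha receptor, PDGF-D mainly through the beta receptor, and PDGF-B through both. In vessels, PDGF-B from endothelium recruits pericytes that carry the beta receptor. In muscle, the alpha receptor marks the fibro-adipogenic progenitors (FAPs), the mesenchymal cells that give rise to fat and fibrous tissue after injury. PDGF-C and PDGF-D are secreted in a latent form and are cut by proteases such as tPA (Plat) and uPA (Plau) before they bind.

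In the mm10 build with GENCODE M21 annotation, Pdgfa lies at chr5:138976014-138997370 on the minus strand and Pdgfra at chr5:75152292-75198215 on the plus strand. Pdgfb lies at chr15:79995874-80014977 on the minus strand. Pdgfc and Pdgfd, which span longer loci, lie at chr3:81036416-81214040 and chr9:6168584-6378850 on the plus strand. Pdgfrb lies on chromosome 18. The table gives 1 value per gene and cell, so transcripts and exons of these genes cannot be told apart.

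There were 6354 cells with 44758518 unique molecular identifiers (UMIs, counted molecules) in the library labelled WT, and 7078 cells with 50930009 UMIs in the one labelled KO. The median cell had 5740 and 5962.5 UMIs, and 686 and 633 cells had under 1000. Gsdme itself had 225 and 237 UMIs, or 5.03 and 4.65 UMIs per 1000000 UMIs (CPM) in the library labelled WT and the library labelled KO. The log2 ratio, KO over WT, was -0.11 (95% interval, -0.38 to 0.16), so the counts of Gsdme do not tell the genotypes apart, and the table does not say which exons were read. Every direction below rests on the labels, and WT and KO stand for the libraries so labelled. The 2 libraries shared 4 cell barcodes. Cells were clustered without the 6 genes and named from other markers, with FAP-like cells set by Col1a1, Dcn and related genes and not by Pdgfra. Clusters that met no marker set, mixed markers of different lineages with few of their own in front, were led by cell cycle genes or held few UMIs with no marker in front stayed unnamed, 772 WT and 782 KO cells in all. In 2 named clusters much endothelial RNA was read beside the markers of the cells: 301 WT and 359 KO pericyte-like cells and 40 and 35 MuSC-like cells, where MuSCs are the muscle stem cells. They are kept apart from the other cells of those names, and levels are ordered below without them, with their values given beside.

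Pdgfa was highest in Schwann-like cells, the glia of nerves, and was widespread among other tissue cells. It stood at 546 CPM (95% interval, 503 to 591) in WT and 493 (449 to 541) in KO Schwann-like cells, 6.74-fold and 7.06-fold above all other named cells. Tenocyte-like cells, the tendon fibroblasts, followed with 203 CPM (191 to 215) in WT and 204 (191 to 217) in KO. Pericyte-like cells had 175 CPM (138 to 219) and 181 (146 to 221), and MuSC-like cells had 156 (138 to 175) and 161 (141 to 183). The intervals of tenocyte-like and pericyte-like cells overlapped, as did those of pericyte-like and MuSC-like cells. Macrophage-like cells had 116 CPM (106 to 126) in WT and 136 (126 to 146) in KO. Pericyte-like cells with endothelial RNA had 132 CPM in WT and 106 in KO, and MuSC-like cells with it 120 and 92.6. Lymphatic endothelial-like cells had 100 CPM in WT and 105 in KO, and other endothelial-like cells 48.1 and 45.1. FAP-like cells, although closely related to tenocytes, had 14.6 CPM (12.6 to 16.9) in WT and 11.8 (10.3 to 13.5) in KO.

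The 2 clusters of Schwann-like cells differed in Pdgfa. The cluster led by Col20a1, Chl1 and Ptprz1, with 85 WT and 62 KO cells, stood at 850 CPM in WT and 697 in KO. The other cluster, with Mbp and Prx among its leading genes and 113 and 94 cells, stood at 172 and 212 CPM. The cluster led by Col20a1 thus held most of the Schwann-like Pdgfa, with 515 of 600 UMIs in WT and 374 of 456 in KO. As shares of all Pdgfa UMIs, tenocyte-like cells gave 27.0% in WT and 24.9% in KO, Schwann-like cells 14.5% and 11.7%, pericyte-like cells with endothelial RNA 14.2% and 14.4%, and macrophage-like cells 12.3% and 18.7%.

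Pdgfb was highest in the endothelium. Endothelial-like cells stood at 256 CPM (245 to 268) in WT and 285 (272 to 297) in KO, 9.54-fold and 8.48-fold above all other named cells. A UMI of Pdgfb was seen in 63.2% of WT and 63.7% of KO endothelial-like cells, at medians of 4547.5 and 4275 UMIs per cell. The same share was 1.2% and 0.561% in FAP-like cells, which had 7425 and 8256 UMIs. With each cell thinned to 1000 UMIs, the endothelial shares were 25.4% of 1164 cells and 23.1% of 1165 cells, and the FAP-like shares 0.243% of 1645 and 0.0471% of 2125; 32 WT and 23 KO endothelial-like and 22 and 14 FAP-like cells were too shallow. Pdgfb was also read in the clusters with endothelial RNA, at 99.4 CPM in WT and 138 in KO pericyte-like cells and at 97.6 and 158 in MuSC-like cells, the latter from 40 and 35 cells. Apart from these, myeloid cells came next. Dendritic-like cells had 58.8 CPM of Pdgfb in WT and 51.1 in KO, macrophage-like cells 46.6 and 70.0, and monocyte-like cells 28.0 and 13. Lymphatic endothelial-like cells had only 15.2 CPM (7.29 to 28.0) in WT and 23.1 (12.9 to 38.1) in KO, below the other endothelial-like cells in both libraries.

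Within the endothelium Pdgfb ranged widely between groups. The group with Aplnr, the receptor of apelin, among its leading genes had 613 CPM in WT and 535 in KO. A small arterial group with Gkn3 and Cytl1 in front had 556 and 507 CPM, from 34 and 41 cells. The group led by Pgf and Apln, both known from tip cells of growing vessels, had 305 CPM in WT and 430 in KO. A larger arterial group with Col8a1 and Edn1 in front had 164 and 232 CPM. Venous cells, with Selp and Ackr1 in front, had 113 and 124 CPM from 47 and 34 cells, and the group led by Plaur and Gdf15 had 81.8 and 105. Of these groups, the one with Aplnr among its leading genes was the highest and the one led by Plaur the lowest in both libraries.

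Pdgfc was carried by FAP-like, tenocyte-like and macrophage-like cells. FAP-like cells had 17.0 CPM (14.8 to 19.4) in WT and 17.7 (15.8 to 19.8) in KO, and macrophage-like cells had 21.2 (17.1 to 25.9) and 22.8 (18.9 to 27.2). Tenocyte-like cells had 14.7 CPM in WT and 17.9 in KO, and the intervals of the 3 cell types overlapped. In endothelial-like cells 2 UMIs of Pdgfc were seen in WT and 5 in KO, or 0.270 and 0.711 CPM. Lymphatic endothelial-like cells had 0 UMIs in both libraries, where 3 UMIs, the floor set here for a count of 0, would be 4.56 CPM in WT and 4.62 in KO. FAP-like cells gave 51.1% of all Pdgfc UMIs in WT and 56.4% in KO, and macrophage-like cells 22.1% and 21.4%.

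Pdgfd was led by endothelial-like cells with 41.7 CPM (37.2 to 46.6) in WT and 51.2 (46.0 to 56.8) in KO. Tenocyte-like cells followed with 22.2 CPM (18.4 to 26.5) and 27.7 (23.2 to 32.9), and FAP-like cells with 13.2 (11.3 to 15.4) and 15.1 (13.4 to 17.0). Pericyte-like cells with endothelial RNA had 26.4 CPM (21.9 to 31.7) in WT and 31.9 (27.3 to 37.1) in KO, above tenocyte-like cells with overlapping intervals, and held 15.1% and 16.8% of all Pdgfd UMIs. Over both arterial groups Pdgfd stood at 80.6 CPM in WT and 95.9 in KO, whereas venous cells had 18.2 and 36.4 from 8 and 10 UMIs. Macrophage-like cells had 2 UMIs of Pdgfd in WT and 1 in KO, so that macrophage-like cells carried Pdgfc with almost no Pdgfd and endothelial-like cells Pdgfd with almost no Pdgfc.

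**Figure D1:**
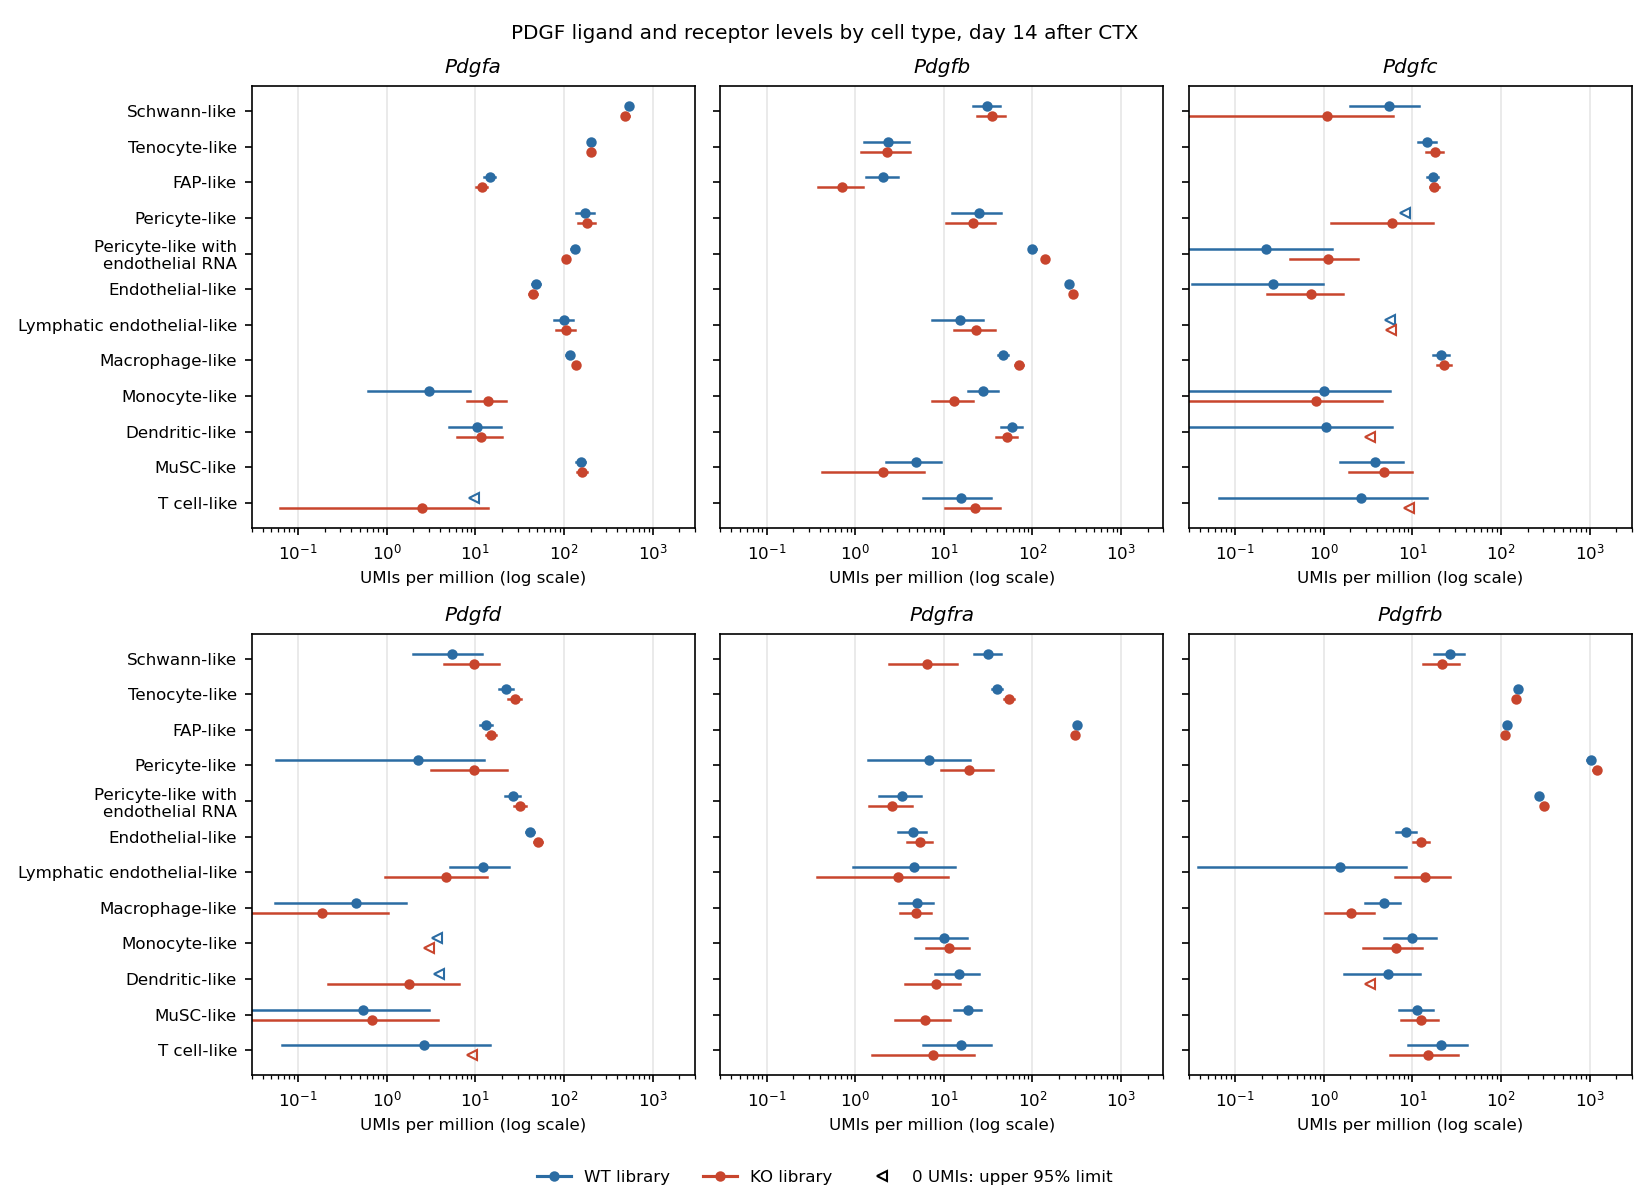
Level in CPM (log axis) of each PDGF gene in 12 cell types, with a point for the WT and the KO library and lines for exact 95% Poisson intervals, cut off at the panel edge; open triangles give the upper limit where no UMI was seen. Pdgfa peaks in Schwann-like cells at 546 and 493, Pdgfb in endothelial-like cells at 256 and 285, Pdgfra in FAP-like cells at 319 and 301 and Pdgfrb in pericyte-like cells at 1022 and 1196.

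Pdgfra was highest in the FAPs. FAP-like cells stood at 319 CPM (309 to 329) in WT and 301 (293 to 309) in KO, 22.8-fold above all other named cells in each library, although Pdgfra was not used to find them. They gave 85.7% of all Pdgfra UMIs in WT, from 26.2% of the cells, and 88.2% in KO, from 30.2%. Tenocyte-like cells had 40.2 CPM (35.0 to 45.8) in WT and 54.2 (47.8 to 61.2) in KO. A UMI of Pdgfra was seen in 77.1% of WT and 78.7% of KO FAP-like cells, against 2.42% and 2.69% of endothelial-like cells, which lie at 4.45 and 5.40 CPM. After thinning to 1000 UMIs the shares were 29.1% and 27.2% in FAP-like and 0.515% and 0.343% in endothelial-like cells.

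Pdgfrb was highest in pericyte-like cells and moderate in the mesenchyme. Pericyte-like cells, whose leading genes also included Acta2 and Myh11 of smooth muscle, stood at 1022 CPM (930 to 1120) in WT and 1196 (1103 to 1294) in KO, 11.2-fold and 12.5-fold above all other named cells. The pericyte-like cells with endothelial RNA had Cdh5 at 1572 CPM in WT and 1817 in KO, and medians of 12800 and 12994 UMIs per cell, against 1861.5 and 1755.5 in the other pericyte-like cells. There Pdgfrb was 270 and 301 CPM, and doublets were not told apart from single cells there beyond the doublet calls. Tenocyte-like cells had 155 CPM of Pdgfrb (144 to 165) in WT and 148 (138 to 160) in KO, and FAP-like cells 118 (112 to 124) and 111 (106 to 116). Endothelial-like cells had 8.50 and 12.7 CPM.

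Groups within the mural cells spanned more than the libraries did. The group with the highest pericyte markers had 1775 CPM of Pdgfrb in WT and 1841 in KO, and a group led by the immediate early genes Egr1 and Fos had 1288 and 1318. A group of 32 cells with the highest smooth muscle markers, led by Pln and Cacna1g, held 16 cells in each library. It had 458 CPM of Pdgfrb in WT and 382 in KO, beside 259 and 271 CPM of Pdgfa. Markers of another lineage lay there at a mean log2 fold of 1.45 over the other pericyte-like cells, and the group was left without a name.

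Both receptors were often read in the same FAP-like cell. UMIs of both were seen in 41.9% of WT and 43.6% of KO FAP-like cells, of Pdgfra alone in 35.2% and 35.2%, of Pdgfrb alone in 7.86% and 7.34% and of neither in 15.1% and 13.9%. Tenocyte-like cells had the other pattern, with Pdgfrb alone in 53.0% of WT and 50.1% of KO cells and both in 20.1% and 22.8%. In pericyte-like cells Pdgfra was seen without Pdgfrb in 0 of 180 WT cells and 1 of 198 KO cells. After thinning to 1000 UMIs, both receptors were seen in 4.07% of 1645 WT and 3.25% of 2125 KO FAP-like cells, so the shares depend on depth.

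Among the FAP-like and tenocyte-like cells the groups that the study calls FAPs-0 to FAPs-6, found here again by 3 markers each, separated the genes. FAPs-0 (Hsd11b1, Mme) had 529 CPM of Pdgfra in WT and 471 in KO, and FAPs-6 (Clu, Cpe) 497 and 527. FAPs-1 (Ifi205, Fgl2) had 255 and 264, FAPs-3 (Sfrp1, Sfrp4) 246 and 224, and FAPs-4, which carries the adventitial genes Pi16 and Dpp4, 194 and 186. FAPs-2 and FAPs-5, which fell into the tenocyte-like cluster for 462 of 463 and 314 of 316 cells, had 27.1 and 41.6 CPM in WT and 51.2 and 46.8 in KO. Pdgfrb varied less, from 61.6 CPM in FAPs-4 to 187 in FAPs-5 in WT and from 51.5 to 167 in KO.

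The ligands of these cells were divided by group as well. FAPs-4 held most of the Pdgfc, with 60.8 CPM in WT and 69.6 in KO, against 0 and 0.676 in FAPs-0 and 1.65 and 2.39 in FAPs-1. Its Pdgfd was 26.2 and 35.4 CPM, against 0.903 and 3.38 in FAPs-0. FAPs-5 and FAPs-2 held the Pdgfa, with 248 and 185 CPM in WT and 225 and 190 in KO, whereas the groups of FAP-like cells lay between 4.95 and 32.3 CPM in WT. The group lowest in Pdgfc, FAPs-0, was thus the highest in Pdgfra in WT, and the groups highest in Pdgfa were the lowest in Pdgfra.

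**Figure D2:**
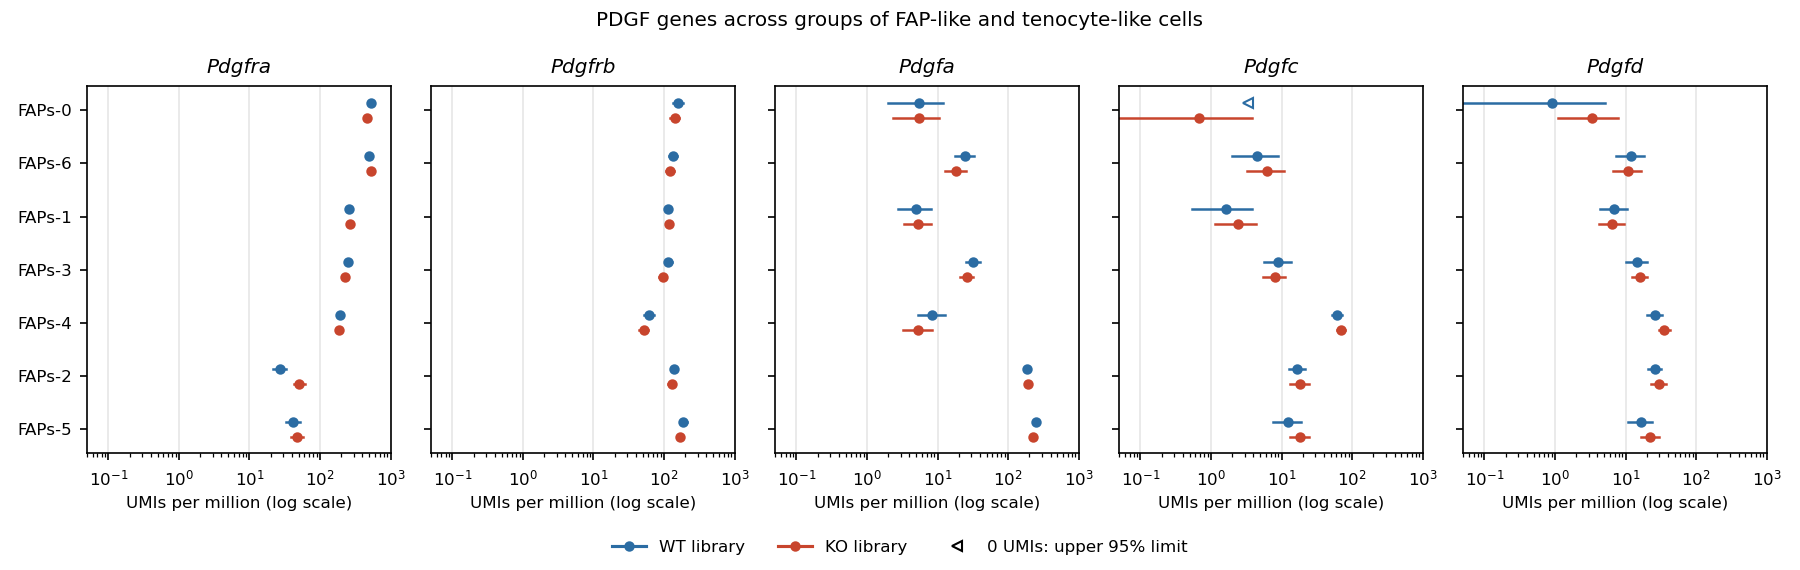
Level in CPM (log axis) of 5 PDGF genes in the groups of FAP-like (FAPs-0, 6, 1, 3 and 4) and tenocyte-like (FAPs-2 and 5) cells, with exact 95% Poisson intervals for the WT and the KO library, cut off at the panel edge. In WT, Pdgfra ranges from 529 in FAPs-0 to 27.1 in FAPs-2, while Pdgfa is highest in FAPs-5 (248) and Pdgfc in FAPs-4 (60.8).

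A gene was counted as standing out in a cell type when it lay 2-fold or more above all other named cells in both libraries. Of 15090 genes, 8.8% did so in FAP-like cells, among them Pdgfra and Pdgfc; 11.3% in endothelial-like cells, among them Pdgfb and Pdgfd; 9.32% in pericyte-like cells, among them Pdgfrb; and 11.4% in Schwann-like cells, among them Pdgfa. In tenocyte-like cells 5.77% did so, with Pdgfa, and in macrophage-like cells 9.47%, with Pdgfc. Each of the 6 genes stood out in at least 1 of these cell types, but the share of all genes that did so was not counted. At this cut FAP-like cells were the only 1 with both a receptor and a ligand. Their Pdgfc lay at 2.55-fold in WT and 2.26-fold in KO. Pericyte-like cells, with Pdgfrb, had Pdgfa at 1.90-fold in WT and 2.35-fold in KO.

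The genes most like each member over 14 cell types were found by Pearson's r of the log2 levels, as a description over types that share their libraries. For Pdgfra they were Scara3 (r = 0.966), Adgrd1 (0.935) and Dpep1 (0.930), and for Pdgfrb Greb1l (0.968), Dzip1l (0.939) and Nxph4 (0.939). For Pdgfa they were Pde7b (0.882), E130307A14Rik (0.828) and Fbf1 (0.812). For Pdgfb they were Pik3cb (0.904), Cd93 (0.882), a receptor of endothelium, and Fabp5 (0.877). For Pdgfc they were Igf1 (0.848), Axl (0.820) and Adam33 (0.8), and for Pdgfd Adgrl2 (0.930), Igfbp3 (0.929) and Fam171a1 (0.920). Some of these r rest on few UMIs. Over all cells the genes named for Pdgfrb had 218, 507 and 127 UMIs, and those for Pdgfa 703, 555 and 709. The genes named for Pdgfra had 4374, 5024 and 8826.

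KO was then set against WT within each cell type. A ratio counted as called when it reached 1.5-fold with at least 30 UMIs over both libraries, from at least 50 cells in each. Where each gene was highest, none of these ratios was called with all UMIs in use. Pdgfa differed by a log2 ratio, KO over WT, of -0.15 (95% interval, -0.32 to 0.03) in Schwann-like and 0.01 (-0.12 to 0.13) in tenocyte-like cells. With every cell thinned to 1000 UMIs the Schwann-like ratio was -0.60, from 98 and 53 UMIs, which passes 1.5-fold. Pdgfb differed by 0.15 (0.06 to 0.24) and Pdgfd by 0.30 (0.07 to 0.52) in endothelial-like cells. The endothelial genes Cdh5 and Pecam1 differed there by 0.17 and 0.03. The Pdgfb ratio became -0.20 when thinned in the same way. Pdgfc differed by 0.11 (-0.30 to 0.51) in macrophage-like cells, where its level was highest, and by 0.06 (-0.19 to 0.32) in FAP-like cells. Pdgfra differed by -0.08 (-0.14 to -0.02) and Pdgfrb by -0.09 (-0.18 to 0.01) in FAP-like cells, and the Pdgfra ratio became 0.10 when cells were gated by Col1a1 and Dcn without clustering. Pdgfrb differed by 0.23 (0.05 to 0.40) in pericyte-like cells, where the pericyte gene Rgs5 differed by 0.26. Dcn stood there at 355 CPM in WT and 1213 in KO, and Col1a1 at 754 and 762. The 7 FAP markers summed to 3220 and 6250 CPM, and their part in the ratio was not tested. The share of genes called was 16.9% in Schwann-like, 13.6% in tenocyte-like, 10.1% in endothelial-like, 14.2% in macrophage-like, 12.4% in FAP-like and 22.5% in pericyte-like cells. These intervals cover counting error only, so one that leaves out 0 does not by itself show a difference between the libraries or the genotypes. The Pdgfb ratio in endothelial-like cells and the Pdgfra ratio in FAP-like cells changed sign under the other settings given above.

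Over all cells the libraries differed in both level and makeup. Pdgfa had 92.3 CPM in WT and 76.5 in KO (log2 ratio -0.27), beside 6.97% of WT and 5.52% of KO cells that were tenocyte-like and 3.12% and 2.20% that were Schwann-like. Pdgfra had 105 and 121 CPM (log2 ratio 0.21), beside 26.2% and 30.2% of cells that were FAP-like. The parts of makeup and level in these ratios were not separated. Within cell types the Pdgfa ratio was 0.01 in tenocyte-like, -0.32 in pericyte-like cells with endothelial RNA, -0.67 in the unnamed cells and 0.23 in macrophage-like cells, and the Pdgfra ratio was -0.08 in FAP-like cells.

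Among the ratios called in whole cell types, that of Pdgfb in macrophage-like cells rested on the most UMIs of any named type. It stood at 46.6 CPM (40.5 to 53.5; 205 UMIs) in WT and 70.0 (63.1 to 77.4; 375 UMIs) in KO, a log2 ratio of 0.59 (0.34 to 0.84), just past 1.5-fold, where 14.2% of genes were called. In the same cells the endothelial gene Cdh5 stood at 12.5 CPM in WT and 7.47 in KO, and Pecam1 at 13 and 8.40. The part of endothelial RNA in the Pdgfb ratio was not tested. Without the groups of macrophage-like cells that were led by genes of other lineages, Pdgfb stood at 45.6 CPM in WT and 71.5 in KO, a log2 ratio of 0.65. The call was lost under other settings, at 0.50 without integration, 0.49 at resolutions of 0.4 and 1.2, 0.40 with marker gates and 0.5847 without cells under 1000 UMIs, all higher in KO. Pdgfa differed there by 0.23 (0.06 to 0.39) and Pdgfc by 0.11 (-0.30 to 0.51). With every cell thinned to 1000 UMIs the Pdgfa ratio was 0.72, which passes 1.5-fold.

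By group, Pdgfb was called higher in 4 of the 8 myeloid groups with 50 or more cells per library. The group with Cx3cr1 and Fos among its leading genes, behind Tulp3 and beside Jun, Hspb1 and Hspa1a, had 77.6 CPM in WT and 159 in KO. The group with Cxcl1 and Il1a had 67.1 and 110, and the group with Mucl1 and Cbr2 19.4 and 49.3. The group with Cd209f and Lyve1, genes of resident macrophages, had 12.8 and 32.5 from 10 and 24 UMIs. The group with Gpnmb and Spp1 in front, genes of lipid-handling macrophages, had 69.8 CPM in WT and 54.3 in KO. That group instead had a higher Pdgfa in KO, at 181 CPM in WT and 273 in KO, a log2 ratio of 0.59 (0.28 to 0.92), while the group with Cxcl1 and Il1a had 222 and 185. Of the member and group pairs tested among myeloid groups, 7 of 16 were called, all higher in KO. Among all gene and group pairs there, 21% were called in either direction. The 7 include Pdgfa in a group led by hemoglobin genes, with a median of 964 UMIs per cell. That group counted among those led by genes of other lineages. In the group with Cx3cr1 and Fos 21.7% of genes were called, and in the group with Gpnmb and Spp1 21.8%.

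**Figure D3:**
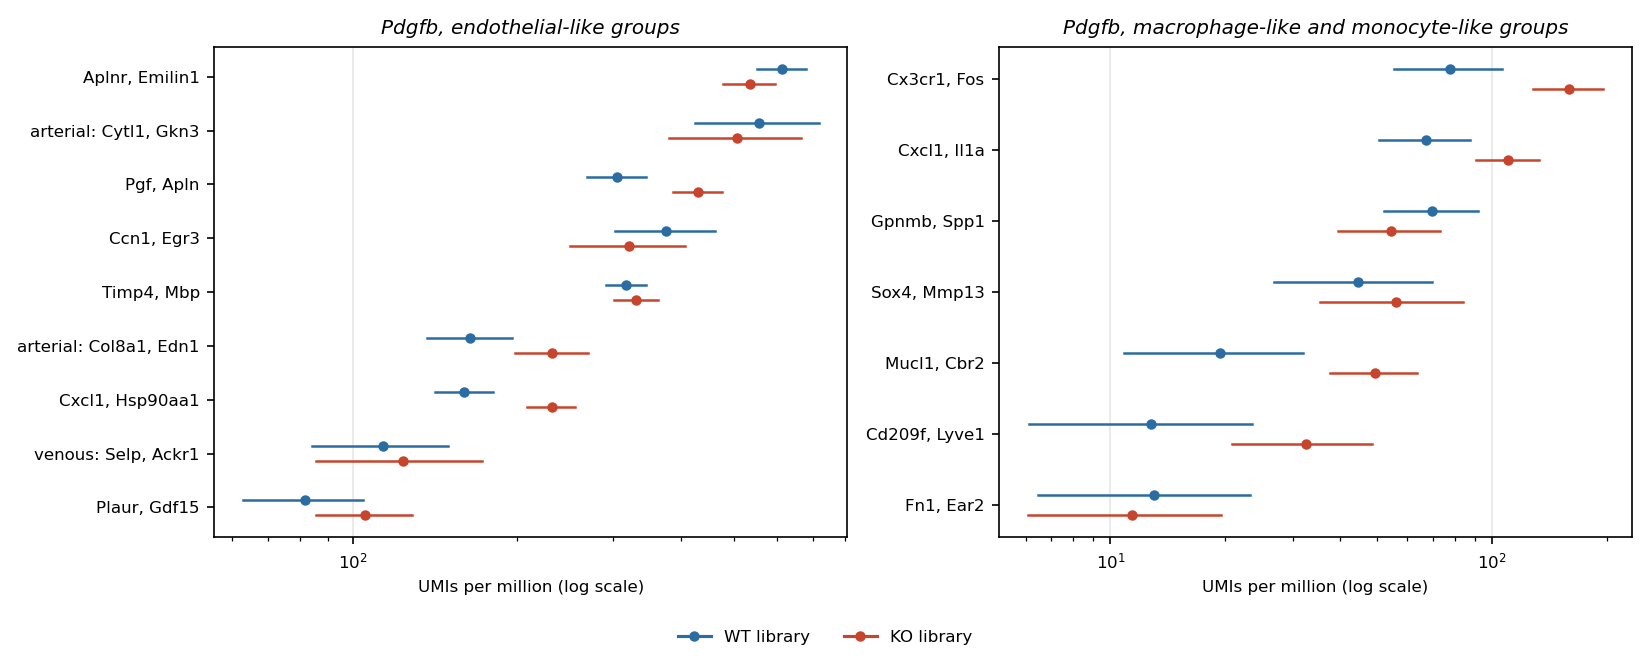
Level of Pdgfb in CPM (log axes) in groups of endothelial-like cells (left) and of macrophage-like and monocyte-like cells (right), each named by 2 of its leading genes, with exact 95% Poisson intervals for the WT and the KO library. Endothelial groups range from 81.8 to 613 in WT, and the group with Cx3cr1 and Fos among its leading genes shows 77.6 in WT and 159 in KO.

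The other called ratios rested on few UMIs, outside the cells where the gene was high. In monocyte-like cells Pdgfb had 28 UMIs in WT and 16 in KO, 28.0 and 13 CPM, a log2 ratio of -1.11 (-2.09 to -0.17), where 21.8% of genes were called; Cdh5 lay the other way there, at 12 CPM in WT and 39.0 in KO. Without the groups led by other lineages that Pdgfb ratio was -0.44, under 1.5-fold, from 15 and 14 UMIs. In FAP-like cells Pdgfb had 26 and 13 UMIs, 2.05 and 0.718 CPM, a log2 ratio of -1.52 (-2.60 to -0.51). Cdh5, at 14.6 and 6.73 CPM, and Pecam1, at 17.0 and 8.28, were also lower in KO, and 13 of the 26 WT UMIs came from 100 cells in groups led by genes of other lineages; the part of this RNA in the ratio was not tested. With marker gates the ratio was -0.37, under 1.5-fold. In macrophage-like cells Pdgfrb had 21 and 11 UMIs, a log2 ratio of -1.22 (-2.42 to -0.10), and without the groups led by other lineages 6 UMIs were seen in each library, or 1.45 and 1.21 CPM. The Pdgfrb ratio was -0.26 without integration and -0.10 with marker gates, also under 1.5-fold.

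Pdgfra was called lower in KO in 2 cell types that held little of it. In MuSC-like cells it had 35 UMIs in WT and 9 in KO, 18.8 and 6.20 CPM, a log2 ratio of -1.60 (-2.84 to -0.52), where 25.9% of genes were called. Dcn there stood at 745 CPM in WT and 558 in KO, and Col1a1 at 444 and 290. With marker gates 1 UMI of Pdgfra was left in each library, a log2 ratio of -0.11, and without integration 19 and 1, a log2 ratio of -3.90. In Schwann-like cells Pdgfra had 35 and 6 UMIs, 31.8 and 6.49 CPM, a log2 ratio of -2.29 (-3.83 to -1.03). Dcn there stood at 3527 and 1366 CPM, and Col1a1 at 1382 and 1241. Without the cells that carried markers of another lineage, 4 WT and 2 KO UMIs of Pdgfra were left in Schwann-like cells. The summed level of the 7 FAP markers was 9963 CPM in WT and 5845 in KO Schwann-like cells, and 4506 and 3781 in MuSC-like cells, with UMIs of all 7 in each library; the part of this RNA in the ratios was not tested.

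**Figure D4:**
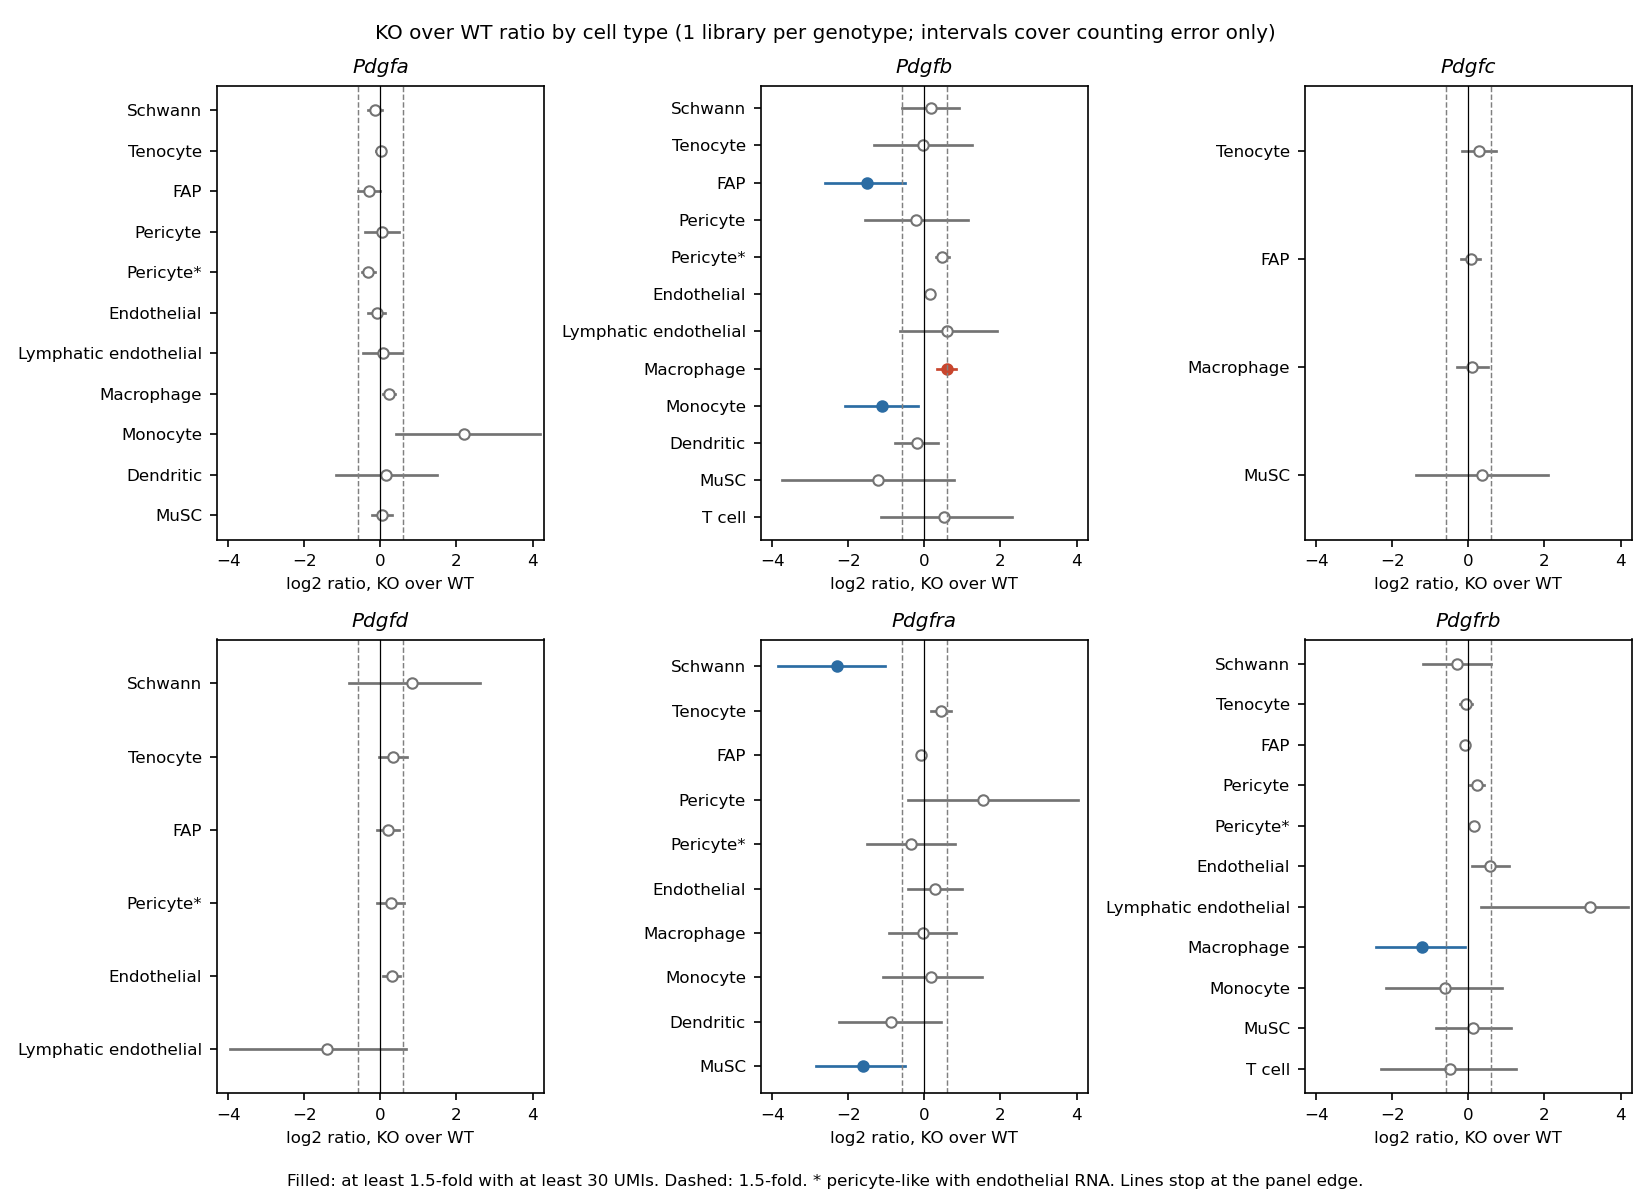
Log2 ratio of KO over WT for each PDGF gene for cell types that held 50 or more cells per library and 10 UMIs of the gene, with exact 95% intervals of the UMI shares that cover counting error only. Filled points reach 1.5-fold with at least 30 UMIs: Pdgfb is higher in macrophage-like cells (0.59) and lower in FAP-like (-1.52) and monocyte-like (-1.11) cells, Pdgfra is lower in Schwann-like (-2.29) and MuSC-like (-1.60) cells, and Pdgfrb is lower in macrophage-like cells (-1.22).

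In tenocyte-like cells Pdgfra was higher in KO without reaching 1.5-fold, at a log2 ratio of 0.43 (0.17 to 0.70). Between FAPs-2 and FAPs-5, the difference was larger in FAPs-2, the group with Fmod and Wif1. Pdgfra had 92 UMIs there in WT and 118 in KO, 27.1 and 51.2 CPM, a log2 ratio of 0.92 (0.51 to 1.33). FAPs-5 had 41.6 and 46.8 CPM. In FAPs-2 14.2% of genes were called. Over the groups of FAP-like and tenocyte-like cells 3 of 40 member and group pairs were called, where 16.6% of all pairs were, and over endothelial groups 3 of 19, where 17% were. The 3 endothelial calls were all higher in KO and included Pdgfd in the largest group, at 36.1 CPM in WT and 57.6 in KO. In the unnamed cells Pdgfa stood at 80.7 CPM in WT and 50.7 in KO, where 16.8% of genes were called.

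The list of 37 other genes of the PDGF pathway, its proteases, adaptors, phosphatases and related receptors, was read in the same way. In FAP-like cells 1 of 34 genes tested was called higher and 0 lower, beside 12.4% of all genes, and the median log2 ratio was -0.05 beside -0.06 over all genes tested. That gene was Ptpn2, a phosphatase that acts on receptor kinases and JAKs, with 40.2 CPM in WT and 76.2 in KO (log2 ratio 0.92, 0.77 to 1.07). Ptpn2 was also higher in macrophage-like cells, with 52.8 CPM in WT and 93.3 in KO (log2 ratio 0.82, 0.59 to 1.05), but not called in endothelial-like cells (0.30) or pericyte-like cells (-0.21). In macrophage-like cells Cblb, a ubiquitin ligase that helps to remove active receptors, was the other of 2 genes called among 32, beside 14.2% of all genes, at 14.6 and 22.0 CPM. In endothelial-like cells 1 of 33 genes was called, beside 10.1% of all genes: Kit, the receptor of stem cell factor, at 31.2 CPM in WT and 61.9 in KO, a log2 ratio of 0.99 (0.76 to 1.23). In pericyte-like cells 3 of 29 were called, beside 22.5% of all genes. Nrp1, a coreceptor of vascular growth factors, had 200 CPM in WT and 332 in KO, the adaptor Gab1 62.9 and 95.3, and Csf1, the growth factor of macrophages, 62.9 and 35.0; the intervals of the log2 ratio held 0 for Gab1 (-0.10 to 1.32) and Csf1 (-1.79 to 0.06). In tenocyte-like cells 0 of 34 were called higher and 1 lower, beside 13.6% of all genes. In MuSC-like cells 6 of 31 were higher and 2 lower, beside 25.9%, and in Schwann-like cells 1 of 28 higher and 3 lower, beside 16.9%.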

How the data were processed

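Cells of injured gastrocnemius were captured with a 10x 5′ kit, 1 library per genotype. The authors deposited 1 table of 19169 genes by 13432 cells whose values are the natural log of 1 plus the UMIs per 10000 UMIs of the cell. The submitters' processing notes name Cell Ranger 2.1.1 and mm10, whereas the study's methods name a later Cell Ranger, Seurat, DoubletFinder and a filter that removed cells with over 10% mitochondrial genes. The end of each barcode names its library. The members and lists were chosen with earlier results of these data known.

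UMIs were recovered by undoing the log and dividing by the value of 1 UMI; all 29528482 values above 0 lay within 0.247 of a whole number, and the step was tested on simulated data. Cells were clustered without the 6 genes: 2000 variable genes, 30 principal components, Harmony rewritten in numpy, 20 neighbors, Louvain, resolution 0.8. Each cluster was named by its best-scoring marker set, the score being the mean log2 fold of the set's genes. Rules added after the clusters were seen left those scoring under 0.75 or led by cell cycle genes unnamed, and named those whose second lineage scored at least 25% of the first by both if at least 3 of their 10 leading genes were markers of the first, and otherwise left them unnamed. The groups within a type used 20 principal components. Scrublet called 1.59% of WT and 1.54% of KO cells doublets; they were kept in the main results.

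Levels are CPM of UMIs summed over cells, with exact 95% Poisson intervals; ratios carry the exact interval of the binomial UMI share. Both cover counting error only: UMIs of 1 library come from few animals, and fewer cells of a kind cannot be told apart from less RNA per cell over all cells. A gene at 0 in 1 library was set to 3 UMIs when counting calls. The counting of calls was checked on simulated data only for genes with many UMIs and with counting error alone. That check did not cover genes at 0, calls that rest on few UMIs or differences between libraries. The genes named are the 6 members, the 3 genes most like each (at least 100 UMIs; log2 of CPM plus 1), Col1a1, Dcn, Pecam1 and Rgs5 as context (Cdh5 was added after its values were seen), and the pathway genes called in FAP-like, pericyte-like, endothelial-like or macrophage-like cells; groups are called by leading genes. The work ran in Python 3.11.15 with scanpy 1.11.5 (Scrublet), igraph 0.11.9 (Louvain), statsmodels 0.14.6 (lowess), scipy 1.17.1, numpy 2.4.6, scikit-learn 1.9.0 and matplotlib 3.10.9.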

Additional observations from a re-analysis of the deposited data

Results flagged for a closer look

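Pdgfb was called in opposite directions in different cell types, and the difference was not tested. Its log2 ratio of KO over WT was 0.59 in macrophage-like and -1.52 in FAP-like cells, a gap of 2.1, and -1.11 in monocyte-like cells, a gap of 1.69. The FAP-like and monocyte-like ratios rested on 39 and 44 UMIs, and each of these calls was lost under at least 1 other setting.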

How the results depend on the processing

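Every direction rests on 1 library per genotype and on its label, so animals, handling and genotype cannot be told apart. No paired analysis was possible because each genotype had 1 library and no test was run. Across the alternatives, 166 ratios moved by less than their counting interval and 21 by more, and no called ratio changed sign. With cells thinned to 1000 UMIs, the log2 ratio of KO over WT was -0.60 for Pdgfa in Schwann-like, 0.27 in tenocyte-like and 0.72 in macrophage-like cells, -0.20 for Pdgfb in endothelial-like, 0.49 for Pdgfc in FAP-like and 0.43 for Pdgfrb in pericyte-like cells. As a mean over cells it was -0.35 for Pdgfa in Schwann-like, 0.0045 for Pdgfb in endothelial-like and 0.0060 for Pdgfra in FAP-like cells. With gates on markers in place of clusters it was 0.10 for Pdgfra in FAP-like and 0.42 for Pdgfrb in pericyte-like cells, and without cells that carried markers of another lineage -0.37 for Pdgfa in Schwann-like cells. The cause was not tested. Pdgfb in macrophage-like cells ranged from 0.40 to 0.66 over 11 settings, so its 1.5-fold call depends on the setting. The thinned Pdgfa ratios in Schwann-like and macrophage-like cells pass 1.5-fold. The calls of Pdgfb in FAP-like and monocyte-like, Pdgfra in MuSC-like and Pdgfrb in macrophage-like cells reached ratios as near to 0 as -0.37, -0.44, -0.11 and -0.10. Leaving out groups led by other lineages was chosen after seeing the data. A minimum of 10 UMIs in place of 30 gave between 15.5% and 32.9% of genes called.

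The log2 level over other named cells kept its direction in every alternative, although 16 alternatives were counted as moved and 28 as the same. Thinned, it was 3.03 for Pdgfa in Schwann-like, 3.85 for Pdgfb and 2.13 for Pdgfd in endothelial-like, 5.04 for Pdgfra in FAP-like and 4.07 for Pdgfrb in pericyte-like cells. As a mean over cells it was 3.62 for Pdgfb, 2.30 for Pdgfd, 4.94 for Pdgfra and 4.15 for Pdgfrb, and with marker gates 4.52 for Pdgfb, 6.12 for Pdgfra and 3.83 for Pdgfrb. For Pdgfra it was 4.80 without integration, 4.26 at resolution 0.4 and 4.73 without cells that carried other lineages' markers, and for Pdgfrb 3.24 at resolution 1.2.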
